A study of Homo sapiens with 2 samples.

Results

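The HOX genes of clusters A to D were examined in REH and 697, established human lines of acute lymphoblastic leukemia of the B-cell precursor type (BCP-ALL). The members were 38 listed genes, named by a rule that uses no measured value and matched to the files by Ensembl identifier, of 57773 gene identifiers in all. These members were chosen with earlier results of these data known. They comprise 10 genes of HOXA, 10 of HOXB, 9 of HOXC and 9 of HOXD. REH is positive for the ETV6/RUNX1 fusion, with the other ETV6 allele deleted, whereas 697 is ETV6/RUNX1-negative. Both were grown untreated in serum-supplemented RPMI medium. Each line was sequenced as 1 total RNA library, so the spread between cultures is unknown, no p-value is given, and every interval covers counting error only.

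HOX proteins are homeodomain transcription factors that give cells their position along the body axis of the embryo. Their genes lie in clusters in which the order along the chromosome follows the order of use, with low-numbered (anterior) genes at the 3′ end and high-numbered (posterior) genes at the 5′ end. Genes of the same number in different clusters are paralogs, that is, copies that arose when the ancestral cluster was duplicated. In blood, HOXA and HOXB genes are used mainly by stem and progenitor cells and are shut down as cells mature, and persistent HOXA expression marks leukemias with KMT2A rearrangements.

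The REH library had 45188375 reads in genes and the 697 library 41097497. The lineage of the lines was checked first. Of 9 markers of B-cell precursors, 7 differed by less than the threshold used here, a log2 ratio of 2 in size. The surrogate light chain gene VPREB1 had 3 reads in REH and 10039 in 697, while CD79B was higher in REH (24198 and 4443 reads). The other 7 markers, among them PAX5 and EBF1, had between 11217 and 77158 reads in REH and between 3941 and 163775 in 697. Among 7 myeloid and erythroid markers, MPO, a granule enzyme of myeloid cells, had 12643 reads in REH and 12 in 697. The other 6 myeloid and erythroid markers had at most 30 reads in REH and 61 in 697, and ELANE and HBB were at 0 in both. Among 6 T-cell markers, CD3E had 45 reads in REH and 0 in 697, CD8A had 0 and 10, CD3G had 2 and 1, and CD4, CD2 and CD3D were at 0 in both. The part of MPO-expressing cells or transcripts in the HOX values was not tested, and in bulk RNA a few cells with much of a transcript cannot be told apart from many cells with little.

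HOX transcription in both lines came almost entirely from HOXA, and it was higher in REH. The 38 genes together had 2205 reads in REH and 264 in 697. As CPM, read counts brought to a common library total after TMM scaling (trimmed mean of M-values), this was 43.9 in REH and 7.15 in 697, a 6.14-fold difference. On the log2 scale it was 2.62, with a 95% counting interval of 2.43 to 2.81. HOXA made up 91.8% of the HOX reads in REH (exact Clopper-Pearson interval 90.6% to 92.9%) and 99.2% in 697 (97.3% to 99.9%). At least 10 reads were found for 14 members in REH and for 5 members in 697, all 5 of them HOXA genes. A minimum of 10 reads was passed by 67.6% of all protein-coding genes (31.1% of all genes) in REH and by 63.7% (28.3%) in 697.

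**Figure D1:**
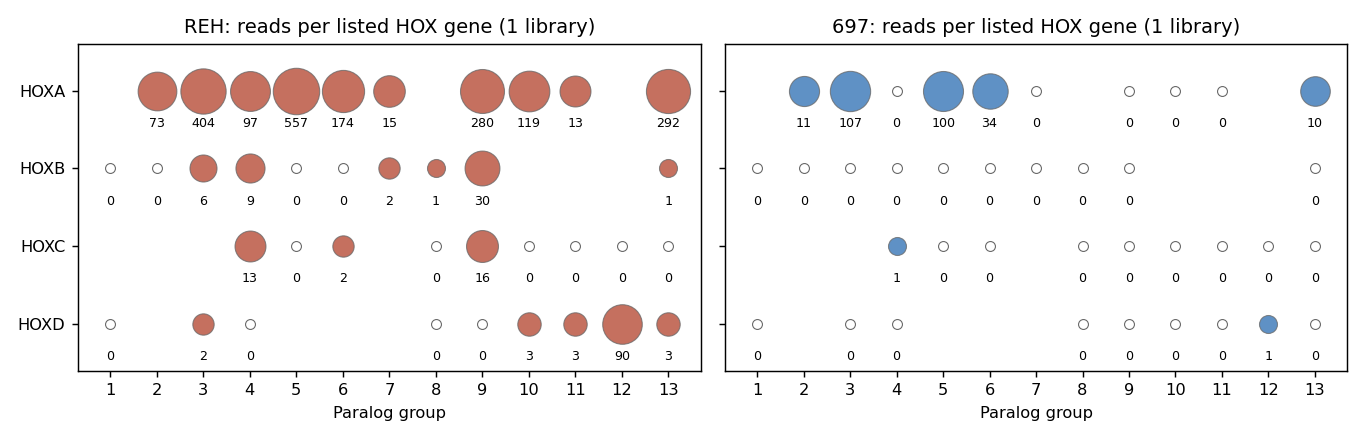
Reads per listed HOX gene in the REH library (left) and the 697 library (right), by cluster (rows) and paralog group (columns); disc area grows with the logarithm of the read number, printed below each disc, open discs stand for 0 reads, and a blank position has no listed gene. The HOXA row holds 2024 of 2205 reads in REH and 262 of 264 in 697.

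A gene that reached 10 reads in either library was compared by the log2 ratio of REH over 697 with 0.5 reads added to each count. Of the 14 members compared, 12 were higher in REH at a log2 ratio of at least 2, none was higher in 697, and HOXA3 and HOXA6 lay under the threshold. Over all 19145 genes compared, 12.5% were higher in REH and 8.15% higher in 697, and over protein-coding genes 10.9% and 7.17%. All 14 had at least 10 reads in REH, and 5 of them also had at least 10 in 697. The other members compared entered by their reads in REH only, and no member entered by its reads in 697 alone. The count of members higher in REH is therefore a description of 14 genes and not of the 38. The ratio and its counting interval lay above 0 for all 14, beside a ratio above 0 for 52.1% of all genes compared. The interval lay above 2 for 6 of them, namely HOXA4, HOXA9, HOXA10, HOXA13, HOXB9 and HOXD12. Of the 14 compared, all with at least 10 reads in REH, 7 had 0 reads in 697, beside 4.34% of all genes with at least 10 reads in REH. That share covers genes of every depth from 10 reads up. It was not matched to the depth of members such as HOXA7, HOXA11, HOXB9 and HOXC9, which had 13 to 30 reads in REH. For the 7 members with 0 reads only a lower bound on the fold can be given. It was computed against a floor of 3 reads in the library, or 0.0812 CPM in 697.

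**Figure D2:**
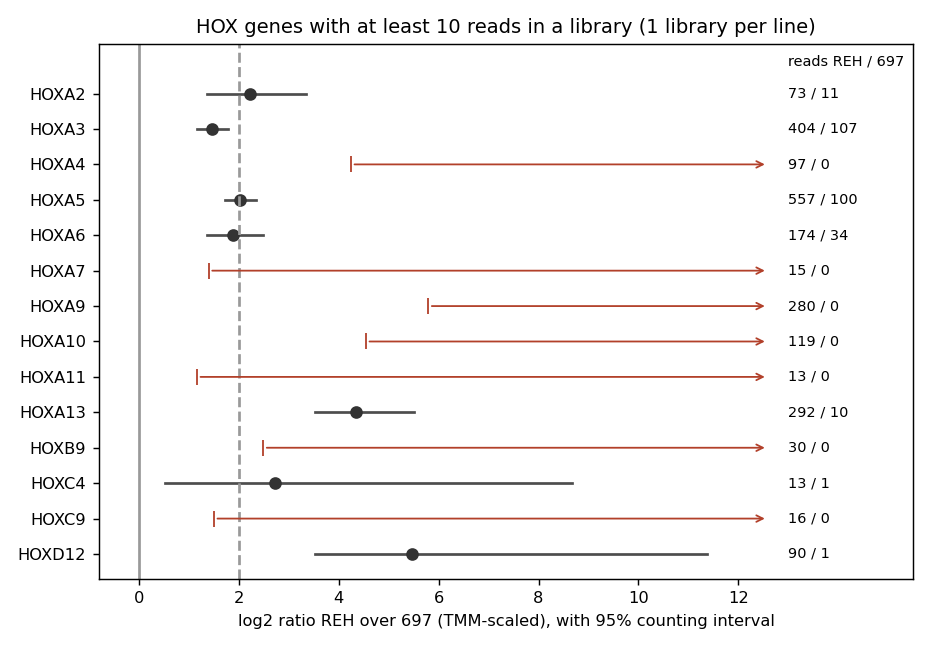
Log2 ratio of REH over 697 for the 14 HOX genes compared; points show the ratio with 0.5 reads added and lines its 95% counting interval, and where 697 had 0 reads an arrow starts at the lower limit of that interval. The dashed line marks a log2 ratio of 2, every interval or arrow begins above 0, and the HOXA9 arrow begins farthest to the right.

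The anterior HOXA genes were transcribed in both lines. HOXA3, which patterns the pharyngeal arches and thymus, had 404 and 107 reads in REH and 697 (8.04 and 2.90 CPM, log2 ratio 1.47, interval 1.16 to 1.79). Its interval stayed below the threshold of 2. The annotated HOXA3 gene runs from 5.83 to 52.2 kb from the low end of HOXA2 and spans HOXA4, HOXA5 and HOXA6. Where its reads lie within that stretch is not known from the counts. HOXA2, a hindbrain and second-arch gene, had 73 and 11 reads (1.45 and 0.298 CPM, log2 ratio 2.23, interval 1.36 to 3.35). Both genes were therefore detected in 697, at a lower level than in REH.

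Among the central HOXA genes, HOXA4 stood apart from HOXA5 and HOXA6 in 697. HOXA5, which acts in lung and axial skeleton development and in blood progenitors, was the HOX gene with most reads in REH and had 557 reads there and 100 in 697 (11.1 and 2.71 CPM). Its log2 ratio of 2.03 had an interval of 1.72 to 2.36, which spans the threshold. The adjacent HOXA6 had 174 and 34 reads (log2 ratio 1.89, interval 1.37 to 2.49). HOXA4, on the other side of HOXA5, had 97 reads in REH and 0 in 697, at least 23.8-fold higher in REH. HOXA7, which flanks HOXA6, had 15 reads in REH and 0 in 697, at least 3.68-fold higher. A further 5 reads in 697 lay where HOXA7 overlaps HOXA-AS3 and could be given to neither. The 697 library thus held reads of HOXA3, HOXA5 and HOXA6 but none assigned to HOXA4 and HOXA7. Only HOXA4 was clearly set apart, as its interval began at a log2 value of 4.25. The HOXA7 interval began at 1.40 and overlapped those of HOXA5 and HOXA6, so its 0 reads did not separate it from them. Summing both strand columns changed the HOXA7 counts to 42 against 5, a log2 value of 2.52, though the added reads could belong to HOXA-AS3.

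Of the 4 posterior HOXA genes, 3 had reads in REH only. HOXA9, a driver of self-renewal in myeloid progenitors and a target of KMT2A fusion proteins, had 280 reads in REH (5.57 CPM) and 0 in 697, at least 68.6-fold higher in REH. HOXA10, which is co-expressed with HOXA9 in progenitors, had 119 reads and 0, at least 29.2-fold higher. A readthrough gene model that joins HOXA10 to HOXA9 (ENSG00000257184) had 31 reads and 0. HOXA11, a gene of limb and kidney development, had 13 reads and 0, at least 3.19-fold higher. HOXA13, which specifies the most distal limb and hindgut and urogenital structures, had 292 reads in REH and 10 in 697 (5.81 and 0.271 CPM, 21.5-fold, interval 11.5 to 45.2). HOXA13 was the one posterior HOXA gene with reads in 697.

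Summed over paralog groups, the difference was smallest for the anterior and largest for the posterior genes of HOXA. The 2 anterior genes (groups 1 to 3) together had 477 and 118 reads in REH and 697 (2.97-fold, interval 2.42 to 3.67). The 4 central genes (groups 4 to 8) had 843 and 134 reads (4.62-fold, interval 3.85 to 5.59). The 4 posterior genes (groups 9 to 13) had 704 and 10 reads (51.7-fold, interval 27.97 to 108). The interval of the posterior genes did not overlap those of the anterior and central genes, and the intervals of the latter 2 sets did not overlap each other. HOXA3 gave 404 of the 477 anterior reads in REH, and HOXA5 gave 557 of the 843 central reads. As the HOXA3 model extends over central genes, the anterior sum rests mostly on reads whose place in the cluster is not known. Single genes did not all follow the order of the sums. Anterior HOXA2 (4.88-fold) stood above central HOXA5 (4.09-fold) and HOXA6 (3.76-fold), with overlapping intervals. Central HOXA4 (at least 23.8-fold) stood beside posterior HOXA13 (21.5-fold). As a share of the HOX reads of a library, which does not depend on scaling, posterior HOXA genes held 31.9% in REH (interval 29.98% to 33.9%) and 3.79% in 697 (1.83% to 6.86%).

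Levels were compared between genes as RPKM, here CPM per kb of annotated exon that no other gene overlaps. In REH, HOXA5 stood highest at 6.44 RPKM (95% Poisson interval 5.92 to 7.0), followed by HOXA6 at 4.50 (3.85 to 5.22). HOXA9 (2.52, 2.23 to 2.83), HOXA3 (2.33, 2.11 to 2.57) and HOXA4 (2.14, 1.73 to 2.61) came next, and their intervals overlapped. HOXA13 followed at 1.17 (1.04 to 1.31) and HOXA10 at 0.867 (0.718 to 1.04). HOXA2 (0.622, 0.488 to 0.783) overlapped HOXA10, and HOXA7 (0.330) and HOXA11 (0.133) were lowest. In 697 the order was HOXA5 (1.57, 1.28 to 1.91), HOXA6 (1.20, 0.828 to 1.67), HOXA3 (0.839, 0.687 to 1.01), HOXA2 (0.128) and HOXA13 (0.0543), with overlapping intervals between HOXA5 and HOXA6 and between HOXA6 and HOXA3. The genes detected in 697 thus kept the order that HOXA5, HOXA6 and HOXA3 had in REH, while HOXA13 stood above HOXA2 in REH and below it in 697, there with overlapping intervals.

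None of these levels was high. HOXA5 stood at percentile 51.9 of RPKM among protein-coding genes with at least 10 reads in REH and at percentile 21.9 in 697. HOXA9 stood at percentile 32.0 and HOXA13 at percentile 22.3 in REH. Where all annotated exon bases were used as the length, HOXA6 was lowered to 2.69 RPKM and HOXA4 to 1.12 RPKM in REH, so the order below HOXA5 depends on the length used. With that length HOXA3 (1.87) and HOXA9 (1.84) were close together and HOXA13 (1.15) lay beside HOXA4.

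**Figure D3:**
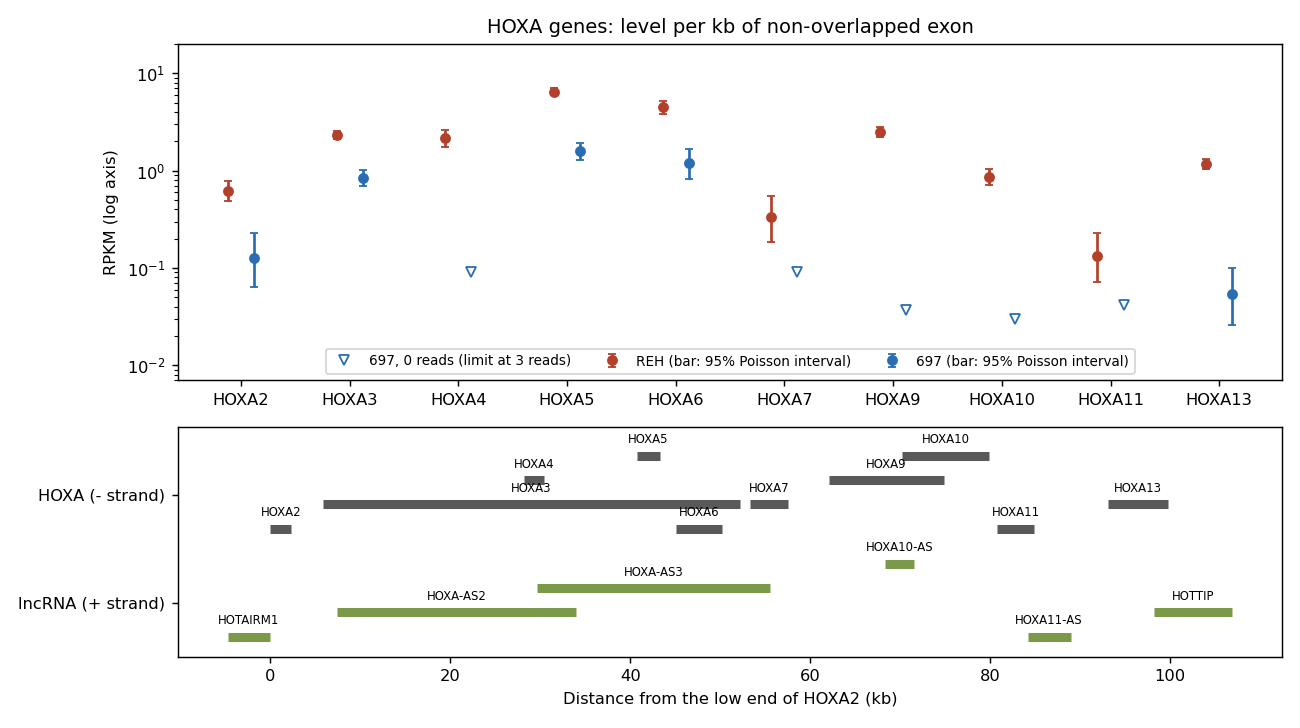
Top, RPKM (log axis) of the 10 listed HOXA genes in REH and 697 with 95% Poisson intervals; open triangles mark the level of 3 reads where 697 had 0. Bottom, extent of the HOXA genes and of lncRNA genes on the opposite strand, in kb from the low end of HOXA2. HOXA5 and HOXA6 are highest in both lines, and HOXA4, HOXA7, HOXA9, HOXA10 and HOXA11 have no 697 point.

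The HOXA genes overlap lncRNA genes of the opposite strand, and reads in such a stretch were left out of the column of reads on either strand as ambiguous. They can be counted back from the 2 strand columns, where each falls to one gene or the other. In REH, 215 further reads lay on HOXA10, 205 on HOXA6, 85 on HOXA9, 73 on HOXA3 and 62 on HOXA4. This was 64.4% of the strand-column reads on HOXA10 and 54.1% on HOXA6. Over the 13709 genes with at least 100 strand-column reads, the median was 0%, the upper quartile 7.86% and percentile 95 lay at 97.2%. HOXA5 and HOXA13 gained 0 reads. In 697, 42 further reads lay on HOXA6, 29 on HOXA3 and 5 on HOXA7, whereas HOXA4, HOXA9, HOXA10 and HOXA11 stayed at 0. Reads of all genes were spread evenly over the strands (50.1% in the first strand column for REH and 50.2% for 697), so these further reads cannot be given to either gene of an overlapping pair.

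Sequence upstream of the start is printed for 5 members. HOXA6 and HOXA13 had reads in both lines, HOXA9 and HOXA10 had reads in REH only, and HOXD12 was the most abundant member outside HOXA. Each run is the 250 bases before a RefSeq start on GRCh38.p14, read 5′ to 3′ on the strand of the gene, at chr7:27147775-27148024, chr7:27165538-27165787, chr7:27179862-27180111, chr7:27200092-27200341 (minus strand) and chr2:176099545-176099794 (plus strand). The windows of HOXA6, HOXA9 and HOXA10 lie within the longer GENCODE models of these genes, and those of HOXA13 and HOXD12 lie directly before theirs. Capitals mark matches to 3 motifs searched on both strands. These were TGATNNAT (bound by PBX and HOX proteins together), TTTATG (a core bound by CDX and posterior HOX proteins) and TATAAA (the core sequence of the TATA box).
HOXA6: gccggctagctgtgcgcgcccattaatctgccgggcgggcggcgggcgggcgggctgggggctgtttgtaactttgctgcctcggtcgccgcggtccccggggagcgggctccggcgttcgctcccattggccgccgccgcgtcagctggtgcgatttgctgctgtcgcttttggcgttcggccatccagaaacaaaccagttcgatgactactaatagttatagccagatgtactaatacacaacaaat
HOXA9: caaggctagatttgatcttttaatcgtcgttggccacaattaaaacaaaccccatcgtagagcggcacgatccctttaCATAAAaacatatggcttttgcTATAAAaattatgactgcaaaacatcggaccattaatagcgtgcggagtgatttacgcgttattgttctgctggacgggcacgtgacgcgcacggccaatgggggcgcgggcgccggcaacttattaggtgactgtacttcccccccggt
HOXA10: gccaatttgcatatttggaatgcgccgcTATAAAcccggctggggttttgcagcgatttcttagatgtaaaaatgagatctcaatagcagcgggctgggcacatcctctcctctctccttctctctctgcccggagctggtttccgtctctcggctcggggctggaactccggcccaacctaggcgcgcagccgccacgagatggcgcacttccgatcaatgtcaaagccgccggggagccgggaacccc
HOXA13: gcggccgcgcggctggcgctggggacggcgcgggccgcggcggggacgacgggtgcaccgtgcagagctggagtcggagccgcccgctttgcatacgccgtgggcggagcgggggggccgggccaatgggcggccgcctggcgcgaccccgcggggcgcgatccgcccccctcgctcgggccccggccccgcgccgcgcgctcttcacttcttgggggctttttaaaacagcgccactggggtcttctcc
HOXD12: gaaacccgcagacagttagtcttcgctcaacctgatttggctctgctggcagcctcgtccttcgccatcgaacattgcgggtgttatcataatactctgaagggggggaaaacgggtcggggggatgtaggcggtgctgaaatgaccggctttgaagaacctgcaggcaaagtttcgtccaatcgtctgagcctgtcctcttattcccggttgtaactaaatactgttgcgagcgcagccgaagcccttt
The HOXA9 window held TTTATG on the reverse strand at position -172 and TATAAA at -150 from the start, and the HOXA10 window held TATAAA at -222. The matches did not overlap. They were marked wherever they lay in the window, so TATAAA is here a sequence match and not an assigned TATA box. No match was found in the windows of HOXA6, HOXA13 and HOXD12. Of 34943 distinct windows of this length in the RefSeq table, 6.49% held TGATNNAT, 9.66% TTTATG and 10.8% TATAAA, and of the 26 distinct windows found for 20 members these were held by 3, 3 and 5. HOXA3 gave 7 of the 26, and HOXC4 and HOXC5 shared 1. The member windows were rich in CpG, with a median ratio of observed to expected CpG of 0.886 against 0.556 over all windows, at a similar median GC content (58.8% and 58.0%). The ratio was 1.34 for HOXA9, 1.13 for HOXA6, 1.06 for HOXA13, 0.907 for HOXD12 and 0.884 for HOXA10. Among these 5 windows, CpG-rich ones were thus found both for genes with reads in both lines and for genes with reads in REH only. Of other HOXA members, HOXA4 (1.01) and HOXA7 (0.900) had high ratios too, while HOXA2 (0.609) and HOXA11 (0.683) had lower ones. The windows of HOXA3 ran from 0.0 to 1.22, and HOXA5 had no window.

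Outside HOXA, 4 of 28 members reached 10 reads, all of them in REH alone. The 28 genes together had 181 reads in REH and 2 in 697. HOXD12, a distal limb gene, accounted for 90 of the 101 HOXD reads in REH and had 1 read in 697 (66.2-fold, interval 11.6 to 2642). Its neighbours HOXD13, HOXD11 and HOXD10 had 3 reads each in REH and 0 in 697, and HOXD3 had 2 and 0. HOXD1, HOXD4, HOXD8 and HOXD9 had 0 reads in both libraries. At 0.695 RPKM (0.559 to 0.854) HOXD12 stood beside HOXA2 and HOXA10 in REH, and its reads split as 40 and 50 over the strands. A member with reads between neighbours almost without them was seen in HOXB and HOXC too, at lower counts.

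In HOXB, HOXB9 had 30 reads in REH and 0 in 697, at least 7.35-fold higher, while HOXB8 had 1 read in REH and HOXB7 had 2. HOXB4, which expands blood stem cells when overexpressed, had 9 reads in REH and HOXB3 had 6. HOXB13, which lies apart from the rest of its cluster, had 1 read. HOXB1, HOXB2, HOXB5 and HOXB6 had 0 reads in both libraries, and no HOXB gene had a read in 697. In HOXC, HOXC9 had 16 reads in REH and 0 in 697, at least 3.92-fold higher. HOXC4, a HOXC gene known to be used in lymphoid cells, had 13 reads in REH and 1 in 697 (9.56-fold, interval 1.44 to 406). HOXC6 had 2 reads in REH and 0 in 697, and HOXC5, HOXC8, HOXC10, HOXC11, HOXC12 and HOXC13 had 0 in both. Of the 24 members not compared, 14 had 0 reads in both libraries and 10 had up to 9 reads in REH and 0 in 697, and for these a difference was not assessed at this depth. Exons of HOXC4, HOXC5 and HOXC6 are overlapped in part by other gene models, and reads in such stretches were counted for no gene.

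By paralog group, most reads of a group in REH came from its HOXA gene wherever one was listed. Group 9, the only group with 3 members compared, had 326 reads in REH (280 from HOXA9, 30 from HOXB9, 16 from HOXC9 and 0 from HOXD9) and 0 in 697. Group 4 had 119 reads in REH and 1 in 697, of which HOXA4 and HOXC4 gave 97 and 13 in REH. Group 13 had 296 and 10 reads, with 292 and 10 from HOXA13. Group 12 consists of HOXC12 and HOXD12, and HOXD12 held all of its reads. Group 8, which has no HOXA gene, had 1 read in REH and 0 in 697.

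The lncRNA genes of the clusters were described from a list of 19, of which 18 were in the files. At least 10 reads were found for 7 of them. Of the 7, 5 were higher in REH and none in 697, beside 17.2% and 10.1% of all 3046 lncRNA genes compared. HOTAIRM1, HOXA10-AS and HOXB-AS4 entered the comparison by their reads in REH only. HOXA10-AS, on the strand opposite HOXA9 and HOXA10, had 191 reads in REH and 0 in 697, at least 46.8-fold higher. HOTAIRM1, at the anterior end of the cluster and known from maturing myeloid cells, had 403 and 3 reads (98.7-fold, interval 33.5 to 481). HOXA-AS2 had 166 and 17 reads (log2 ratio 2.81, interval 2.12 to 3.66). HOTTIP, known to keep posterior HOXA genes active, had 138 and 20 reads (5.07-fold, interval 3.16 to 8.56). HOXB-AS4, just beyond HOXB9, had 13 and 0 reads.

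HOXA-AS3 and HOXA11-AS differed less, with 121 and 36 reads (log2 ratio 1.29, interval 0.76 to 1.88) and 41 and 18 reads (log2 ratio 0.72, interval -0.09 to 1.63). The interval of HOXA11-AS included 0. In 697, therefore, reads of HOTTIP, HOXA11-AS and HOXA13 were found at the posterior end of the cluster while HOXA9, HOXA10, HOXA10-AS and HOXA11 had 0. HOTAIR of HOXC and HAGLR of HOXD had 0 reads in both libraries. Of 6 microRNA genes of the clusters, 4 were in the files and MIR196A1 alone had reads (2 in REH and 0 in 697).

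Of 37 other genes annotated within the spans of the 4 clusters, including lncRNAs named above, 9 were compared, 7 were higher in REH and none was higher in 697, beside 12.5% and 8.15% of all genes compared. Of the 37, 33 had 0 reads in 697, so most could reach the comparison by their reads in REH only. Between HOXB9 and HOXB13, PRAC2 (126 and 0 reads), LINC02086 (78 and 0) and LINC03057 (47 and 0) had more reads in REH than any HOXB gene. PRAC2 lies next to HOXB13, which had 1 read.

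The genes flanking the clusters were inspected to see whether the difference went on outside. Of the 3 nearest protein-coding genes on each side of each cluster, 24 in all, 20 were compared and 1 was higher in each line. Over all protein-coding genes compared, the shares past the threshold were 10.9% toward REH and 7.17% toward 697. With 1 gene in each direction, these counts are too small to tell whether the flanks differed from those shares. In the HOXA flanks, 4 genes were compared and 1 was higher in REH. SKAP2, an adaptor protein of immune cells and the nearest coding gene beyond the anterior end of HOXA at 105 kb, had 3156 reads in REH and 10 in 697 (232-fold, interval 126 to 484). Farther out on that side, SNX10 had 0 reads in both libraries and CBX3 had 10733 and 13132 (log2 ratio -0.74). At the posterior end of HOXA, the homeobox gene EVX1 had 1 and 0 reads and was not compared. The genes after it lay under the threshold. HIBADH had 1660 and 4335 reads (log2 ratio -1.83, interval -1.91 to -1.75) and TAX1BP1 had 5895 and 4676. Beyond HOXD, MTX2, which encodes a protein of the mitochondrial outer membrane, had 0 reads in REH and 964 in 697, at least 437-fold higher in 697. The HOXB and HOXC flanks held no gene past the threshold.

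HOX proteins bind DNA together with TALE homeodomain cofactors of the PBX, MEIS and PKNOX families. Of 8 cofactor genes described here, 5 were compared, 1 was higher in 697 and none was higher in REH, beside 7.17% and 10.9% of protein-coding genes. MEIS2 had 1 and 170 reads (231-fold higher in 697, log2 ratio of REH over 697 -7.27, interval -13.17 to -5.36). PBX2 (3740 and 2044 reads, log2 ratio 0.43), PBX3 (1165 and 1442, -0.75), PBX4 (210 and 102, 0.59) and PKNOX1 (1461 and 1397, -0.38) were present in both lines and under the threshold. MEIS1, the partner that accompanies HOXA9 in myeloid leukemia, had 0 reads in both libraries, as did PKNOX2. The HOXA9 reads of REH were thus found without MEIS1 reads.

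**Figure D4:**
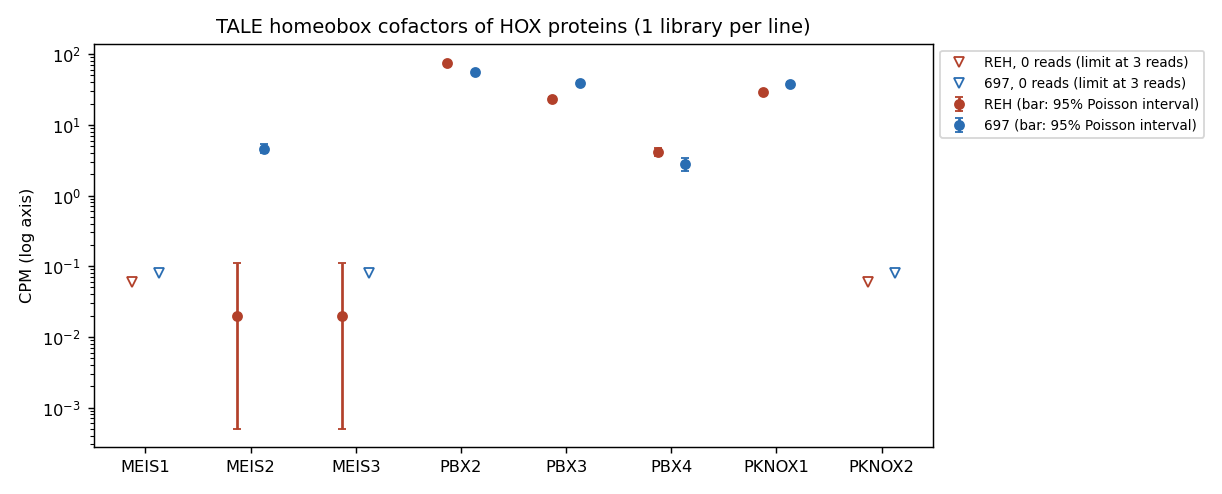
CPM (log axis) of 8 TALE cofactor genes in REH and 697 with 95% Poisson intervals; open triangles mark the level of 3 reads where a library had 0. MEIS2 is higher in 697 (170 reads against 1), PBX2, PBX3, PBX4 and PKNOX1 lie close together in the lines, and MEIS1 and PKNOX2 had 0 reads in both.

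Genes that set the state of HOX chromatin differed little as a group. KMT2A and its partners hold HOX genes active, and Polycomb proteins hold them silent. Of 16 genes on the KMT2A side, 14 were compared and none passed the threshold (median log2 ratio 0.05, from -0.56 to 0.93, beside a median of 0.05 over all genes compared). KMT2A itself had 13250 reads in REH and 9798 in 697, and MEN1, the menin subunit, had 4565 and 2867. Of 24 Polycomb genes, 23 were in the files and compared, and BMI1, a subunit of the PRC1 complex, was higher in 697 (2224 and 11611 reads, 7.10-fold, log2 ratio of REH over 697 -2.83, interval -2.89 to -2.76). The other 22 lay under the threshold, among them EZH2, the methyltransferase of PRC2 (14799 and 9978 reads), and the median log2 ratio of the list was 0.17. Of the CDX genes, activators of HOX clusters in the embryo, CDX2 had 28 reads in REH and 2 in 697 (10.3-fold, interval 2.59 to 89.1), while CDX1 and CDX4 had 0 in both.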

How the data were processed

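Total RNA of the BCP-ALL cell lines REH and 697, 1 library each, was compared, with groups taken from the cell line in the labels. Per the study's methods, the authors aligned reads to hg38 with STAR, whereas the submitters' processing notes name hg19, and deposited raw read counts per gene on either strand and on each strand. Reads mapping to several places are not counted. The annotation release is not given in the sources used here. Names, positions and exon lengths came from GENCODE 44 on GRCh38, with 51996 of 57773 identifiers matched, so lengths are approximate. The labels describe stranded, ribodepleted libraries and the methods poly(A) selection.

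The counts on either strand were scaled with TMM (edgeR 4.0.16, R 4.3.3), giving factors of 1.11 for REH and 0.899 for 697. DESeq2 1.42.0 size factors served as an alternative. Ratios used 0.5 added reads, exact Clopper-Pearson intervals and a floor of 3 reads. Intervals for levels are exact Poisson intervals, at 95%. Genes with 10 or more reads in a library were compared. Scripts ran in Python 3.11.15 (with scipy 1.17.1, matplotlib 3.10.9, numpy 2.4.6 and pandas 2.3.3), and the ratio step was tested on simulated data. The members, the gene lists and the naming rule (every member with at least 10 reads, listed cofactors, lncRNAs with at least 10 reads, and list genes or neighbours past the threshold) were chosen with earlier results of these data known. HOXD, HOXB and HOXC members under 10 reads, EVX1, SNX10, CBX3, HIBADH, TAX1BP1, MIR3185, KMT2A, MEN1, EZH2, PRAC2, LINC02086 and LINC03057 were named after their values were seen. Some genes, among them a HOXA gene outside the list of members, are not reported here.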

Additional observations from a re-analysis of the deposited data

Results flagged for a closer look

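For 3 of the HOX genes, listed lncRNAs and other genes within the clusters, the strand columns held reads above the floor of 3 where the main column, of either strand, was at 0. HOXA7 had 5 such reads in 697 (1 and 4 on the 2 strands), HOXB-AS1 had 4 such reads in REH (0 and 4), and the microRNA gene MIR3185, beside HOXB13, had 44 in REH (22 and 22). These reads lie where genes on opposite strands overlap, HOXA7 with HOXA-AS3, HOXB-AS1 with HOXB3 (which had 4 such reads as well) and MIR3185 with PRAC2 (which had 44), so the gene they came from cannot be told apart.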

How the results depend on the processing

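The normalization, filter, pseudocount, threshold and strand columns were varied, and the sum of both strand columns and the length of all exons were added after seeing the data. No paired analysis was possible because REH and 697 have 1 library each, and for the same reason no replicate could be left out. No member was higher in 697 under any alternative run, and none of the 98 recomputed ratios of single members fell below 0. These runs reused the same 2 libraries, and of the members compared 7 had 0 reads in 697 and 2 had 1 read. For such members a ratio below 0 was hardly possible, so these counts add no support for the direction. Without TMM scaling every log2 ratio rose by 0.31, HOXA6 passed the threshold, and the ratio of the HOXA sum was 2.81 in place of 2.50. Among the members compared, the number higher in REH was 12 of 14 with DESeq2 size factors, 13 of 14 with unscaled totals and 13 of 15 with summed strand columns. It was 8 of 11 with each strand column, 17 of 24 with a minimum of 1 read and 7 of 9 with a minimum of 50 reads. At a log2 ratio of 1 it was 14 of 14, and with 5 reads added 6 of 14. Part of the change in these numbers thus came from how many members were compared. The shares of all genes higher in REH under these settings ran from 8.43% (5 reads added) to 22.4% (log2 ratio of 1). They were 11.2% and 11.1% with the first and second strand columns, and 11.5% with a minimum of 1 read. With a minimum of 50 reads, 9 members were detected in REH and 2 in 697, and with each strand column 3 were detected in 697. With 5 reads added in place of 0.5, the log2 ratio of the sum went from 6.19 to 2.99 for HOXB, from 3.95 to 2.14 for HOXC and from 5.64 to 3.70 for HOXD, and it was 3.91 for HOXA4, 5.39 for HOXA9, 4.19 for HOXA10 and 2.36 for HOXB9. HOXA2, HOXA7, HOXA11, HOXC4 and HOXC9, each with 0 to 11 reads in 697, then lay below the threshold, as did HOXA5, which went from 2.03 to 1.98.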
